A study of Mus musculus with 4 samples.

Results

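The genes described here are 9 markers used to recognise monocytes and the macrophages that develop from them: Ly6c2, Plac8, Chil3, S100a4, S100a6, Hp, Tmem176a, Tmem176b and Lyz2. They were chosen by name, and all 9 were found among the 55471 genes of the count table by Ensembl identifier. They were measured in 4 poly(A) RNA-seq libraries of CD11b-positive cells, bead-isolated from brains of mice that were 10 to 13 weeks old. All mice had been given PLX5622, an inhibitor of the receptor CSF1R, for 7 days, and it was then withdrawn for 10 days, so that the course lasted 17 days. The libraries form a single group, numbered 1 to 4 as in the labels, with no untreated group analysed here. The values are therefore levels and spreads, not effects of the drug. The labels do not say whether the libraries came from separate animals, and the spread may be technical.

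Microglia arise from yolk sac progenitors and renew within the brain, whereas monocytes arise in bone marrow and circulate in blood. Classical mouse monocytes carry Ly6C on their surface and can enter tissue, where they lose that marker as they become macrophages. CSF1R inhibitors remove most microglia, and the emptied niche can be refilled by surviving microglia or, in some settings, by cells from the blood. CD11b is the integrin chain encoded by Itgam, found on microglia, monocytes, neutrophils and macrophages at the brain borders, so a CD11b isolation can hold all of them. Itgam stood at 531 ± 75.6 CPM (SD, n = 4), CPM being counts scaled to a library of 1000000, and all 14 genes of a homeostatic microglia list reached 1 CPM in every library.

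The stretches of genome in front of 5 of these genes are shown, with the matching stretch for the copies Lyz1 and Ly6c1. They let these copies be compared, and Tmem176a and Tmem176b start head to head. The 5 are the genes whose stretch held the motif marked below. The stretches of Plac8, S100a4 and S100a6, which lacked it, are not printed, nor is that of Chil4, the copy of Chil3, which held it. The sequences are from RefSeq on build GRCm38.p6, 5′ to 3′ on the strand of the gene, 250 bases up to the base before the 5′-most listed start site. Capitals mark AGGAAGT or its reverse complement ACTTCCT, a 7-base form of the sites bound by PU.1 and other ETS factors. PU.1 is the transcription factor on which myeloid cells depend. The shorter letters GGAA within the motif, not marked alone, also occur in the stretches of Plac8, S100a4 and Ly6c1. The Tmem176 stretch is the 108 bases between the starts of both genes, at chr6:48841375-48841482 on the plus strand.
Tmem176a and Tmem176b: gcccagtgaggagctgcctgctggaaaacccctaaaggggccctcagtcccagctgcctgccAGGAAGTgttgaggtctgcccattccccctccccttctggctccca
Lyz2, chr10:117282273-117282522, minus strand: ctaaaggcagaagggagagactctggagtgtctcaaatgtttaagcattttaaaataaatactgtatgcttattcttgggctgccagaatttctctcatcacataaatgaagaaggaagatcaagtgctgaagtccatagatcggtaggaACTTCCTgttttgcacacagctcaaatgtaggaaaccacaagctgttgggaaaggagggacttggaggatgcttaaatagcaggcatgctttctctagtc
Lyz1, chr10:117292869-117293118, minus strand: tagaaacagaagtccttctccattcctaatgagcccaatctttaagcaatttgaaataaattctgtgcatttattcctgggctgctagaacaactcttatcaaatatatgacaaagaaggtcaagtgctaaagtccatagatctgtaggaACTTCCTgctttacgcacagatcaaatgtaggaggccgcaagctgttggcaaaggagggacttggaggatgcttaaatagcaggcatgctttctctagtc
Ly6c2, chr15:75111972-75112221, minus strand: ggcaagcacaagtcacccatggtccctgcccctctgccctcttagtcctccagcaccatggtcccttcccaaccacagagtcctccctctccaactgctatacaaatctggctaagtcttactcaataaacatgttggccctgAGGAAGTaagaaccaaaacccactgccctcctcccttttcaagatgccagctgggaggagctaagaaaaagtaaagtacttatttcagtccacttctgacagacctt
Ly6c1, chr15:75048838-75049087, minus strand: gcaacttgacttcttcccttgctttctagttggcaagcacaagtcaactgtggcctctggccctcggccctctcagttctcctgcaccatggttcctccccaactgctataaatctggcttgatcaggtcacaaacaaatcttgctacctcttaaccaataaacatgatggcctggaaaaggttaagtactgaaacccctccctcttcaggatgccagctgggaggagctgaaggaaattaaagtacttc
Chil3, chr3:106167565-106167814, minus strand: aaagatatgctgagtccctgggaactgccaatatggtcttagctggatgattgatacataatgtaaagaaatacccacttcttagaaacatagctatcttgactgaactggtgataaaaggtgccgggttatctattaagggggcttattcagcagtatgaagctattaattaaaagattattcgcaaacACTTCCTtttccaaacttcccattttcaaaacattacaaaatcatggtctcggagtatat
RefSeq windows were listed for 8 of the 9 genes, Hp being the exception. Those of 5 of the 8 held the motif on either strand (62.5%), namely Ly6c2, Chil3, Tmem176a, Tmem176b and Lyz2, against 2100 of 27025 genes with a window (7.77%). Tmem176a and Tmem176b share a single copy of the motif, at -46 to -40 from the Tmem176a start and -69 to -63 from that of Tmem176b. In Lyz2 and Lyz1 alike it lies at -100 to -94 from the start, in Ly6c2 at -107 to -101 and in Chil3 at -60 to -54. The motif was chosen after the sequences had been seen, and a match describes letters, not a bound site.

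The 9 genes fell into an abundant trio and 6 genes of low level. Lyz2, Tmem176b and Tmem176a took 97.3%, 97.4%, 98.2% and 98.2% of the counts of the 9 genes in libraries 1 to 4. The other 6 genes together had 32.4 CPM in library 1, the highest, and 14.1 CPM in library 4, the lowest. All 9 genes together took 0.121%, 0.0767%, 0.0932% and 0.0782% of all counts, with 95% Wilson intervals of 0.119% to 0.122%, 0.0756% to 0.0778%, 0.092% to 0.0945% and 0.0771% to 0.0793%. The Wilson intervals cover counting error only, not the variation between libraries. In bulk RNA, fewer cells of a type and less RNA per cell cannot be told apart.

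Lyz2 encodes lysozyme M, an enzyme that cleaves bacterial cell walls and is made by monocytes, macrophages and neutrophils. It had 547, 321, 484 and 333 CPM in libraries 1 to 4, a mean of 421 ± 112 CPM (SD, n = 4), with libraries 1 and 3 above libraries 2 and 4. The gene (ENSMUSG00000069516) lies on chromosome 10, 117277331 to 117282321, on the minus strand of GRCm38. Divided by exonic length, Lyz2 was at 27.8%, 14.6%, 19.5% and 16.5% of the level of Csf1r, the drug target. Its neighbour and close copy Lyz1, the lysozyme of intestinal Paneth cells, had 1.39, 0.691, 0.836 and 0.714 CPM. The Lyz2 level was thus 476 ± 76.4 times the Lyz1 level in CPM (457 ± 73.3 per length). The 250 bases in front of both genes were 78.8% identical over 260 alignment columns, with the motif at the same position. Of the Lyz2 transcript, 84.6% of 50-base stretches occurred in no other gene, and 15.4% were shared with Lyz1, so reads from the shared part could be split or dropped.

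Tmem176a and Tmem176b encode related multi-pass membrane proteins of dendritic cells and macrophages. Tmem176b had 433, 296, 327 and 285 CPM and Tmem176a had 189, 126, 140 and 127 CPM. Both were highest in library 1, at 1.32 (Tmem176b) and 1.35 (Tmem176a) times the next library, and close together in the other 3. Their ratio hardly varied, at 2.29, 2.35, 2.33 and 2.24 in CPM, or 3.70 ± 0.0751 per exonic length (SD, n = 4). The patterns of the pair across the libraries differed by 0.025 (root mean square of centred log2 values), the smallest distance among all pairs of the 9 genes. On chromosome 6 of GRCm38, Tmem176b (48833818 to 48841496, minus strand) and Tmem176a (48840919 to 48847071, plus strand) overlap by 81 exonic bases on opposite strands. The strand setting of the counting is not given in the sources used here, and reads from those bases cannot be assigned with certainty. The RefSeq start of Tmem176b at 48841374 and that of Tmem176a at 48841483 bound the 108 bases printed above.

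**Figure D1:**
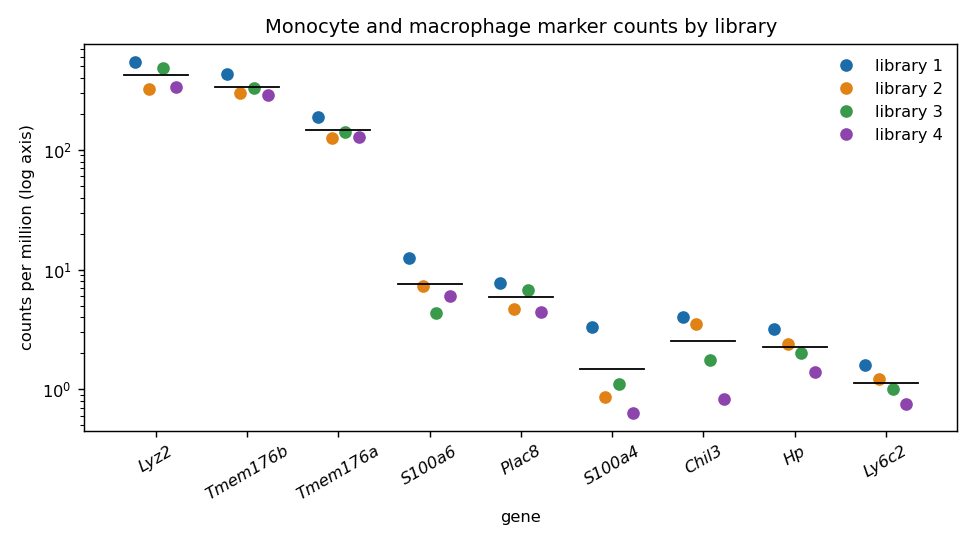
Levels in CPM (log axis) of the 9 genes in each of the 4 libraries, with a bar at the mean over libraries; genes run by level per exonic length. Lyz2, Tmem176b and Tmem176a lie between 126 and 547 CPM and the other 6 genes between 0.635 and 12.5 CPM, and library 1 is the highest point for every gene.

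Ly6c2 encodes the Ly6C surface protein by which classical monocytes are sorted. It had 39, 28, 23 and 19 counts in libraries 1 to 4, or 1.59, 1.21, 1.01 and 0.754 CPM, with a mean of 1.14 ± 0.353 CPM (SD, n = 4). The highest and lowest libraries had 95% Poisson intervals of 1.13 to 2.17 and 0.454 to 1.18 CPM. These intervals cover counting error only, here and for the genes below. The close copy Ly6c1, which brain endothelium expresses, was far higher, at 78.4, 81.2, 15.9 and 58.0 CPM. Ly6c1 was lowest in library 3 (adjusted p = 2.8e-05 for its spread, edgeR goodness of fit), and Ly6c2 was lowest in library 4. Per exonic length, Ly6c2 amounted to 1.24%, 0.911%, 3.9% and 0.796% of Ly6c1 (2.03%, 1.49%, 6.37% and 1.3% in CPM). Of the 50-base stretches of the Ly6c2 transcript, 12.6% also occur in Ly6c1, so some counts may belong to the copy, and how many was not tested. On chromosome 15 of GRCm38, Ly6c2 (ENSMUSG00000022584) spans 75108158 to 75111970 and Ly6c1 75044018 to 75048830, both on the minus strand, with 59.0% identity over 290 alignment columns in front of their starts.

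Ccr2, the chemokine receptor that lets classical monocytes leave the bone marrow, was higher than Ly6c2. Per exonic length Ly6c2 was at 14.6%, 13.3%, 11.2% and 8.27% of Ccr2, which had 26.9, 22.4, 22.2 and 22.5 CPM. Plac8, a small cysteine-rich protein of monocytes and other leukocytes, had 7.71, 4.66, 6.74 and 4.41 CPM. The gene lies on chromosome 5, 100553725 to 100572245, on the minus strand. As for Lyz2, libraries 1 and 3 stood above libraries 2 and 4, and the patterns of both genes differed by 0.05. No other pair of the 9 genes except the Tmem176 pair was closer.

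**Figure D2:**
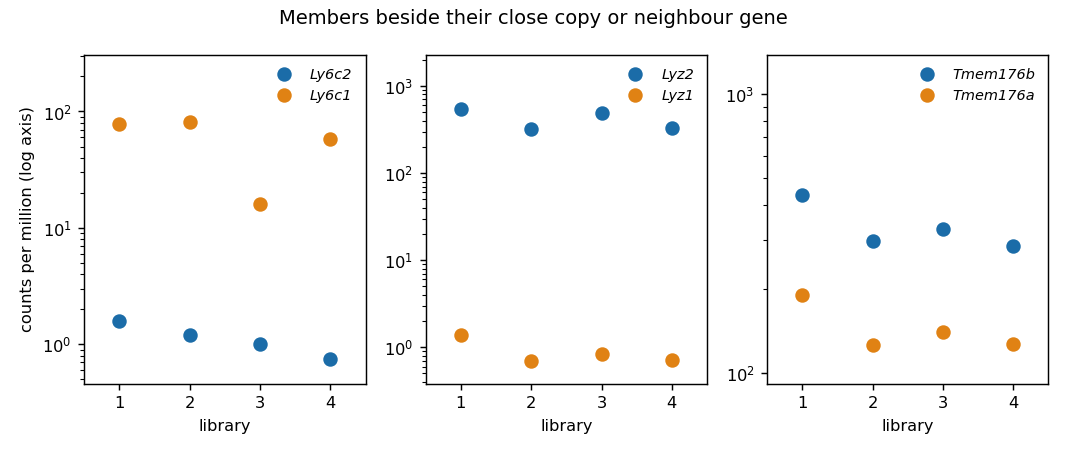
Levels in CPM (log axis) in libraries 1 to 4 for Ly6c2 and its copy Ly6c1, Lyz2 and its copy Lyz1, and the neighbours Tmem176b and Tmem176a. In library 3 Ly6c2 is at 1.01 CPM and Ly6c1 at 15.9 CPM, its lowest, and the Tmem176 pair keeps a ratio of 2.24 to 2.35.

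Chil3 encodes a secreted chitinase-like lectin, Ym1, of monocytes, alternatively activated macrophages and neutrophils. It had 99, 81, 40 and 21 counts, or 4.04, 3.5, 1.76 and 0.833 CPM. Libraries 1 and 2 were the high pair, and the 95% Poisson interval of library 4, 0.516 to 1.27 CPM, lay below those of libraries 1 and 2. Its copy Chil4 had 0 counts in all 4 libraries, although 18.5% of the 50-base stretches of the Chil3 transcript occur in it. Of the same stretches 14.6% occur in Gm6522 and 70.6% in no other gene, so reads from the shared parts could be split or dropped. On GRCm38, Chil3 (ENSMUSG00000040809) spans 106147554 to 106167564 on the minus strand of chromosome 3. Hp encodes haptoglobin, which binds free haemoglobin and is stored in neutrophil granules as well as secreted by liver. It had 3.22, 2.38, 2.03 and 1.39 CPM, a range of 2.32-fold, with its libraries ranked as for Chil3 and Ly6c2. In pattern Hp was nearer to Ly6c2 than to Chil3, at distances of 0.087 and 0.382 (root mean square of centred log2 values). The gene lies on chromosome 8, 109575128 to 109579172, on the minus strand.

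The list nearest to Chil3 in its pattern over the libraries was the neutrophil list, at a distance of 0.187 (root mean square of centred log2 values). The 13 genes of a neutrophil list summed to 90.3, 92.5, 39.5 and 21.6 CPM, and 7 of 13 reached 1 CPM in every library. S100a9, a calgranulin abundant in neutrophils, had 23.9, 26.8, 11.9 and 6.23 CPM. Chil3 was 0.169, 0.13, 0.148 and 0.134 of S100a9 in CPM, a narrow range beside the 4.85-fold range of Chil3 itself. Hp was 0.135, 0.0886, 0.17 and 0.223 of S100a9, which is less even. The pattern of Hp lay at 0.565 from the neutrophil list and at 0.142 from the border-associated macrophage list, the nearest to it. Most of the CPM of the latter list came from a single gene, Stab1, and the distance without it was not tested. The surface marker Ly6g had 5, 5, 2 and 1 counts, the granule genes Elane and Mpo had 0 counts in libraries 3 and 4, and the part of neutrophils in the Chil3 level was not tested.

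S100a4 and S100a6 encode small calcium-binding proteins found in monocytes, lymphocytes, fibroblasts and other cells. S100a6 had 12.5, 7.34, 4.36 and 6.03 CPM, highest in library 1 and lowest in library 3. S100a4 had 81, 20, 25 and 16 counts, or 3.3, 0.864, 1.1 and 0.635 CPM. Library 1 was at 3.81 times the mean of the other 3, with an adjusted p of 0.203 for the spread (edgeR goodness of fit). The mean of S100a4 was 1.48 ± 1.23 CPM (SD, n = 4), and 0.867 CPM without library 1. The level of S100a4 is uncertain, because 56.3% of the 50-base stretches of its longest transcript also occur in Gm42674, a gene on the same strand that overlaps it by 302 exonic bases. Gm42674 had 0 counts in all 4 libraries, and how reads common to both genes were counted is not given in the sources used here. S100a4 and S100a6 lie on the plus strand of chromosome 3 of GRCm38, S100a4 at 90603771 to 90606045 and S100a6 at 90612882 to 90624181.

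Genes can be compared with each other only per length, here CPM per kilobase of exonic sequence. Lyz2 led with 320 ± 85.1, followed by Tmem176b with 141 ± 28.4 and Tmem176a with 38.2 ± 7.74 (SD, n = 4), and the ranges of these 3 genes did not overlap with each other or with the next. S100a6 (5.53 ± 2.58), Plac8 (3.69 ± 1.01), S100a4 (2.53 ± 2.11), Chil3 (1.55 ± 0.915) and Hp (1.4 ± 0.476) followed, each overlapping its neighbour in this order. Ly6c2 was last at 0.417 ± 0.129. Its range, 0.275 to 0.581, lay below that of Hp (0.865 to 2.01) and overlapped that of Chil3 (0.511 to 2.47). With the longest transcript as the length, the ranges of Lyz2 and Tmem176b overlapped, and Hp came ahead of Chil3. Among 27837 genes with at least 1 count and a known length, Lyz2 stood at percentile 99.7, Tmem176b at 99.2, Tmem176a at 96.3 and S100a6 at 75.8. Plac8 stood at 70.4, S100a4 at 66.1, Chil3 at 61.5, Hp at 60.5 and Ly6c2 at 49.4, near the middle of all genes with counts.

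**Figure D3:**
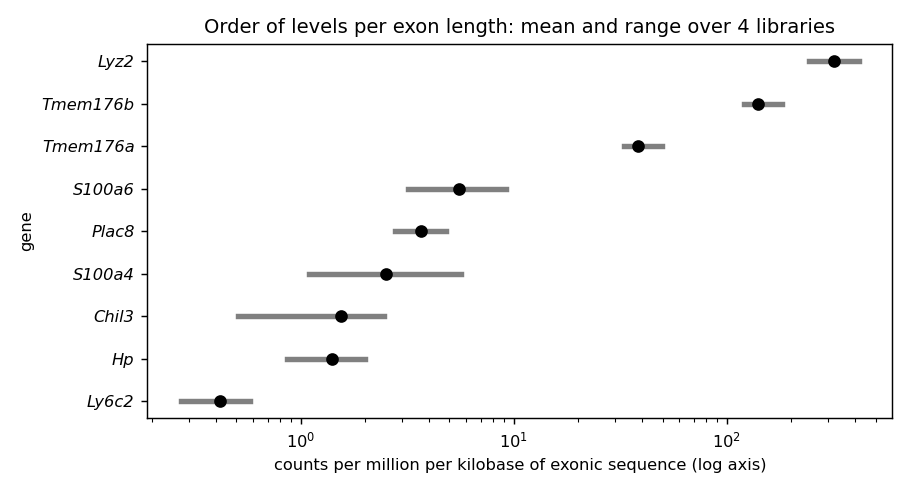
CPM per kilobase of exonic sequence (log axis) for the 9 genes, with points at the mean and bars from the lowest to the highest of 4 libraries. The Lyz2 bar (mean 320) does not reach that of any other gene, and Ly6c2 has the lowest mean (0.417), with a bar that overlaps that of Chil3.

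The members were also set against the summed counts of the homeostatic microglia list, which summed to 50000, 44400, 49900 and 41100 CPM in libraries 1 to 4. For each 1000000 counts of that list, Lyz2 had 10900, 7220, 9710 and 8100 counts, and Tmem176b had 8650, 6680, 6550 and 6940. Chil3 had 80.7, 78.8, 35.3 and 20.3, and Ly6c2 had 31.8, 27.2, 20.3 and 18.3. Library 1 was again the highest for each of the 9 genes.

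Other genes of the monocyte and macrophage lineages were present at a range of levels. Of 17 classical monocyte genes, 12 reached 1 CPM in every library, led by the chemokine Ccl9 at 164 ± 27.1, fibronectin (Fn1) at 131 ± 67.8 and Klf4, a transcription factor also active in endothelium, at 79.5 ± 37.1 CPM (SD, n = 4). Fcnb, a lectin of monocyte and neutrophil precursors, had 0 counts in libraries 3 and 4. All 10 nonclassical monocyte genes reached 1 CPM, among them Cx3cr1, Nr4a1 and Ace, which microglia, stimulated cells and choroid plexus or endothelium also express. Treml4, more restricted to nonclassical monocytes, had 1.79, 2.2, 1.89 and 1.11 CPM. All 11 genes of a list for engrafted bone-marrow-derived macrophages reached 1 CPM, Apoe and Apobec3 among them, and Ms4a7, a membrane protein of macrophages other than microglia, had 31.8, 8.64, 10.3 and 8.89 CPM.

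All 9 genes were at their highest in library 1. Of 14112 genes tested, 4821 (34.2%) were. The gap between library 1 and the mean of the other libraries ran from 0.50 for Ly6c2 to 1.49 for S100a4 on the scale of log2(CPM + 0.5). All 9 stayed highest in library 1 with DESeq2 size factors, with total counts and with scaling to the homeostatic microglia list. In library 4, 6 of the 9 were at their lowest (4 with homeostatic scaling), against 20.3% of genes tested. Lyz2 and Tmem176a were lowest in library 2 and S100a6 in library 3.

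Transcript length moved with the same contrast. The longest transcripts of the 9 genes ran from 498 to 2680 bases, and of 4962 tested genes in that range 2626 (52.9%) were highest in library 1. The share was 58.2% for transcripts of up to 1000 bases and 11.7% for those over 5000 bases. The median difference of library 1 from the others was 0.33 and -0.17 (log2) in these bins, and 0.23 in the range of the 9 genes, below each of the 9. With the median of the length bin removed from each library, 6 of the 9 were still highest in library 1, Plac8 and Lyz2 were highest in library 3 and Chil3 in library 2. The gap of library 1 then ran from 0.26 for Tmem176b to 1.17 for S100a4 (log2). The part of transcript length in the pattern beyond this was not tested.

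**Figure D4:**
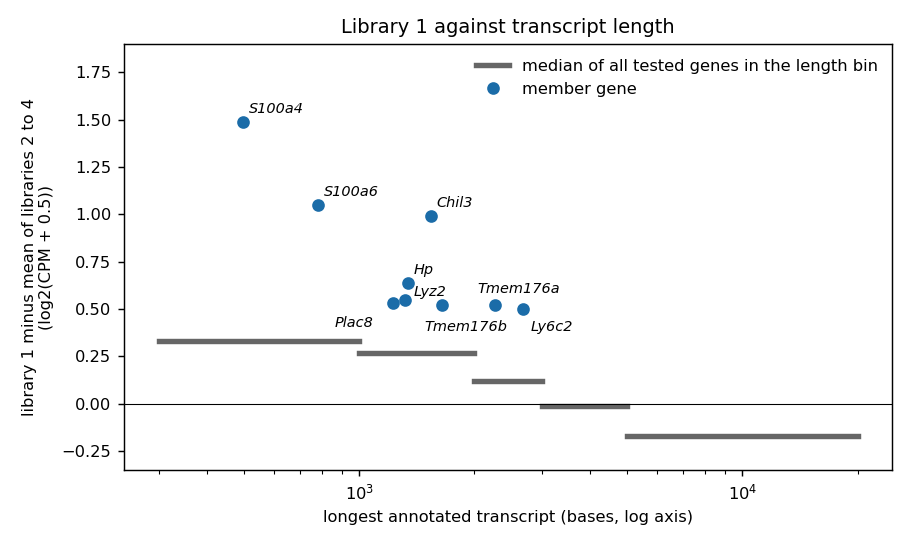
Difference of library 1 from the mean of libraries 2 to 4 in log2(CPM + 0.5), against the longest annotated transcript (bases, log axis). Points are the 9 genes, and grey bars are medians of all tested genes per length bin (the outer bins are drawn to the plotted limits). The medians run from 0.33 in the shortest bin to -0.17 in the longest, and all 9 genes lie above them.

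The companion lists of the monocyte lineage did not share the library 1 maximum of the 9 genes. Classical monocyte genes summed to 599, 705, 558 and 634 CPM, with 4 of 17 highest in library 1. Nonclassical monocyte genes summed to 3920, 4970, 4640 and 4130 CPM, with 4 of 10 highest there, and engrafted macrophage genes to 2910, 2400, 3320 and 2480 CPM, with 5 of 11. The sums were highest in library 2 for both monocyte lists and in library 3 for the engrafted macrophage list.

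Some lists of other cells were highest in library 1. All 9 border-associated macrophage genes were highest there, and the list summed to 1620, 1160, 1170 and 996 CPM. Pf4 and Mrc1, a chemokine and the mannose receptor of these cells, had 40.0, 10.5, 9.55 and 8.3 and 291, 148, 141 and 121 CPM. The pattern of these sums lay at a distance of 0.063 from Tmem176b (root mean square of centred log2 values), 0.083 from Tmem176a and 0.088 from Ly6c2. Most of these sums came from Stab1, with 948, 834, 865 and 723 CPM, which varied less than Pf4 and Mrc1. The distances depend on that gene, and those without it were not tested. T and NK cell genes summed to 28.1, 20.3, 11.9 and 11.2 CPM, with 8 of 12 highest in library 1. Of the T cell receptor genes, Cd3d had 3, 1, 1 and 1 counts and Cd3g 6, 5, 3 and 4, whereas Cd3e with 1, 4, 3 and 10 and Trac with 12, 14, 9 and 16 were highest in library 4. The cytotoxic and NK cell genes Gzma, Gzmb, Nkg7, Prf1, Klrb1c and Ncr1 were highest in library 1, Gzma with 288, 132, 76 and 67 counts. Libraries 1 and 2 were close for Prf1 (64 and 58 counts) and Ncr1 (37 and 31 counts). Il2rb with 93, 98, 51 and 53 counts and Cd2 with 14, 16, 4 and 13 counts were highest in library 2. All 6 erythroid genes were highest in library 1 as well, with sums of 365, 175, 32.4 and 66.0 CPM. The part of these cells in the library 1 values was not tested.

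Vascular, fibroblast and choroid plexus markers took another course. Of the 34 genes in these 4 lists, 32 were lowest in library 3, where S100a6 was the single member at its lowest. Endothelial genes summed to 988, 985, 242 and 842 CPM, pericyte and smooth muscle genes to 690, 654, 103 and 448 CPM, fibroblast genes to 52.7, 51.1, 14.3 and 62.5 CPM, and choroid plexus genes to 16100, 16000, 3340 and 22400 CPM. S100a6 in library 3 was 2.87-fold below its highest library. In its pattern over the libraries S100a6 was nearest to the T and NK cell list, at 0.223 (root mean square of centred log2 values). Its distances to the endothelial, fibroblast, pericyte and smooth muscle, and choroid plexus lists were 0.565, 0.637, 0.756 and 0.859. Whether cells of any of these lists carried S100a6 was not tested.

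**Figure D5:**
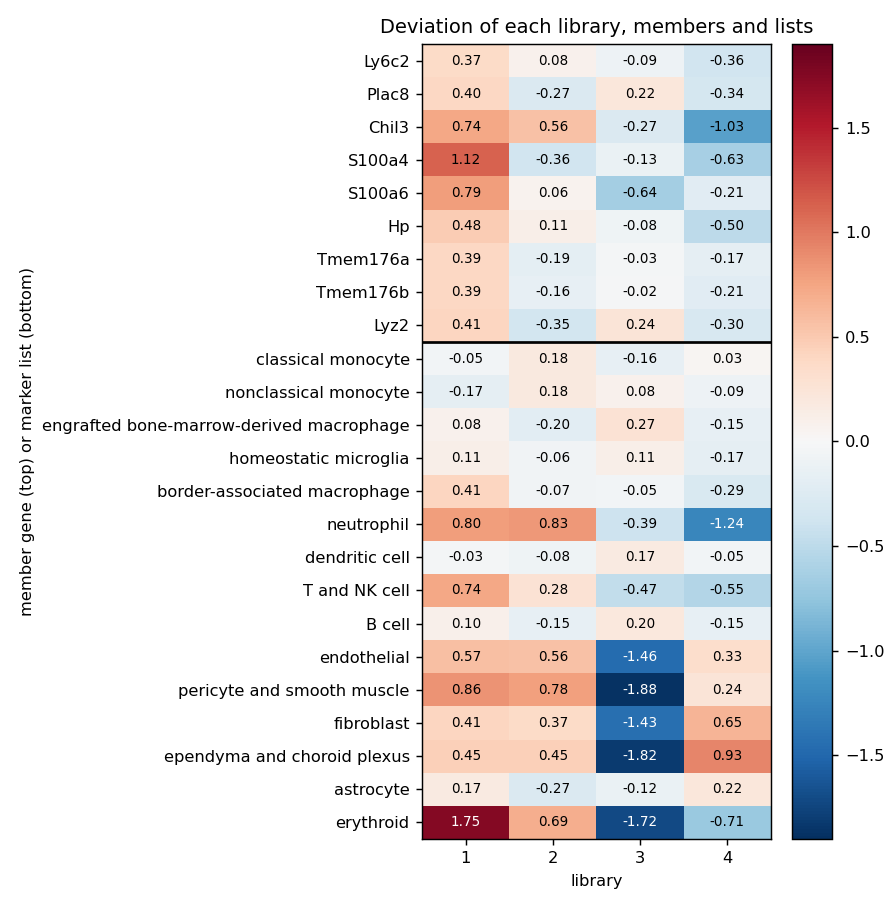
Deviation of each library from the mean over libraries, in log2(CPM + 0.5), for the 9 genes (top) and for the summed CPM of 15 marker lists (bottom). Library 1 is positive for all 9 genes (0.37 to 1.12). Chil3 and the neutrophil list share high values in libraries 1 and 2 and low ones in library 4 (-1.03 and -1.24), and vascular lists are lowest in library 3.

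The spread between libraries was tested for every gene with edgeR's goodness of fit (negative binomial), which asks whether a gene varies more than genes of its level. All 9 genes were tested, and 0 passed an adjusted p of 0.05 (Benjamini-Hochberg over 14112 genes), against 3.28% of all genes tested. At an unadjusted p under 0.05 there were 2 of 9, S100a4 and Chil3, against 1350 of 14112 genes tested (9.57%), with adjusted p of 0.203 and 0.47 in edgeR. The quasi-likelihood variance test called 0 genes of all tested (0.0%, with 658 at an unadjusted p under 0.05) and the DESeq2 dispersion outliers 5 (0.0354%), so their counts of 0 among the 9 say nothing about these genes. The median deviance of the 9 genes was 3.47, against 1.13 over all genes tested, and the median ratio of highest to lowest library was 2.11-fold against 1.43-fold. The fold ratio was not matched for level, and 6 of the 9 genes were under 13 CPM in every library. Neither comparison was matched for transcript length. S100a4 passed in 1 alternative only, the edgeR fit without library 3, at an adjusted p of 0.0182 (range over its alternatives 0.0182 to 1.00), where 0.716% of genes passed. In simulated counts of the same 14112 genes, a 2-fold rise in 1 library was recovered for 1 of 100 genes and a 4-fold rise for 71 of 100, with 4 false calls.

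The same test called several genes of the companion lists. Over all genes tested, 463 of 14112 passed (3.28%). Without library 1, 2, 3 and 4 the counts were 425 of 14277, 276 of 14253, 106 of 14802 and 258 of 14182. Among border-associated macrophage genes 4 of 9 passed (Mrc1, Cd163, Pf4 and Cbr2), and 0, 1, 6 and 1 passed without library 1, 2, 3 and 4. Of 13 neutrophil genes 2 passed, S100a9 and Ngp, with 4 passing without library 3 and 0 without any other library. Of the classical monocyte list Fn1 and Klf4 passed, of the nonclassical list Ace, and of the engrafted macrophage list Ms4a7, at an adjusted p of 0.0447 in edgeR. Without library 1, 2, 3 and 4 these lists had 2, 1, 0 and 2, then 2, 1, 0 and 1, and 0, 0, 1 and 0 calls. Of the 34 vascular, fibroblast and choroid genes 24 passed, and 1 without library 3. Erythroid genes had 5 calls, and 2 without library 1. The dendritic cell and astrocyte lists had 1 each, Itgax and S100b, and between 0 and 2 with a library left out. In the edgeR goodness of fit, 0 genes passed in the homeostatic microglia, T and NK cell and B cell lists, with 1, 1 and 0 at an unadjusted p under 0.05. Without library 3, 1 T and NK cell gene passed.

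Genes whose pattern across the 4 libraries was nearest to that of a member were found among 12506 others at 1 CPM or more in every library. With 4 points per gene, many lie close by: 1018 genes were within 0.1 (root mean square, log2) of Tmem176b, 109 of Plac8, 96 of Lyz2, 83 of Ly6c2 and 5 of S100a6. Nearest to Lyz2 were Ptpn18 (0.025), Aif1 (0.027), which encodes the microglia and macrophage protein IBA1, and Rpl6 (0.036). Aif1 had 406, 226, 349 and 238 CPM. Nearest to Plac8 were Gngt2 (0.016), Snhg8 (0.026) and the pseudogene Gm14303 (0.029). Nearest to Ly6c2 were Stap1 (0.035), Syt3 (0.037) and the chemokine Cxcl2 (0.040). Nearest to S100a6 were Mdfi (0.079), Gprasp2 (0.085) and Egfl8 (0.086), and nearest to Tmem176b were Ddt (0.003), Saraf (0.005) and Yeats4 (0.008).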

How the data were processed

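RNA was measured in 4 libraries of 1 group, made from 300 ng of total RNA with poly(A) selection and a strand-marking kit, per the labels. The authors deposited raw counts per Ensembl gene. Build GRCm38, STAR 2.7.2b, featureCounts 1.6.5 and bcl2fastq 2.20.0.422 are named in the submitters' processing notes. The sources used here give neither the strand setting nor the handling of multi-mapped reads. Of 55471 identifiers, 55230 matched GENCODE M21.

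Libraries held 24412573, 23036202, 23585261 and 24487418 counts; 3 counts are 0.119 to 0.132 CPM. CPM used TMM-scaled totals (edgeR 4.0.16, R 4.3.3). Spread was tested with the edgeR goodness of fit (trended dispersion, genes kept by filterByExpr), since a single group has no coefficient for the quasi-likelihood test, and tested on simulated data. Sequence stretches of 50 bases were compared across GENCODE transcripts. Promoter alignments used Biopython 1.88. No pair of libraries matched within sampling noise (chi-square per degree of freedom 20.7 to 100).

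The 9 genes and the 15 marker lists were chosen with earlier results of these data known. Named were all members, their close copies, the 3 highest, called or near-0 genes of lists the text turns on, and the 3 genes nearest in pattern to 5 members; Ccr2, Treml4 and most T and NK cell genes were added after their values were seen. Alternatives were DESeq2 1.42.0 size factors and dispersion outliers, total counts, no filter, quasi-likelihood variance, other lengths, homeostatic scaling and each library left out.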

Additional observations from a re-analysis of the deposited data

Results flagged for a closer look

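The ratio of Ly6c2 to Ly6c1 had 1 library far from the others. It was 2.03%, 1.49%, 6.37% and 1.3% in libraries 1 to 4, and the gap of library 3 to the nearest other was 0.856 of the whole range, above the Dixon 95% critical value for 4 samples. In library 3 Ly6c2 had 1.01 CPM, from 23 counts, and Ly6c1 had 15.9 CPM, its lowest of the 4 libraries. Of 36 sets of 4 values examined this way, 1 passed, and chance alone passes about 1 in 20. S100a4 came close, at 0.826, with library 1 as the high sample.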

How the results depend on the processing

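The count of members past the spread threshold was 0 to 1 when a library was left out and 0 under every other alternative; the 1 was S100a4, without library 3. Over all genes the count was 463, was 106 to 425 with a library left out, was 0 by the quasi-likelihood variance test (658 at an unadjusted p under 0.05) and was 5 by DESeq2 dispersion outliers. Over the companion lists it was 41, and 19 to 30 with a library left out. Non-overlapping neighbours in the order per length numbered 4, and 2 with the longest transcript. The other scalings and left-out libraries moved the mean level of no member by more than 1 SD (63 of 63). For the left-out libraries this outcome was fixed in advance, since leaving out a single library of 4 cannot move a mean that far. S100a4, whose SD is close to its mean, had 0.867 CPM without library 1 against 1.48 CPM. The 9 members highest in library 1 became 6 with length-bin medians removed, an alternative chosen after seeing the data, as were the other scalings of that count. No paired analysis was possible because there is a single group. Depth limits the low genes: Ly6c2 and S100a4 rest on 16 to 81 counts per library.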
